A study of Mus musculus with 16 samples.

Results

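The genes described here encode parts and a regulator of the motile cilia of ependymal cells, the epithelium that lines the brain ventricles. The list holds 10 genes, *Foxj1*, *Rsph1*, *Rsph4a*, *Ccdc39*, *Ccdc40*, *Tekt1*, *Dnali1*, *Dynlrb2*, *Tmem212* and *Dnah5*, and was set by gene name, with no measured difference in its rule. It was chosen, however, with earlier results of these data known. A probe could be named for 9 of the 10 genes, out of 20134 named genes with a value on every array. *Ccdc40* was not analysed here, because no probe matched its transcripts in the gene table used.

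Total RNA of the right neocortex rostral from bregma was measured on Agilent mouse whole genome arrays in C57BL/6J mice. The part of the left cerebral cortex that includes the sensorimotor cortex had been removed by suction (hemisuction, called hemidecortication in the labels), so that the tissue measured was the hemisphere that had not been operated on. In the NBH groups (NBI in the labels) surgery was at postnatal day 7, and tissue was taken 1 week later at 14 days of age (NBH 1W) and 4 weeks later at 35 days (NBH 4W). In the ABH groups (ABI in the labels) surgery was in adult mice, and tissue was taken 1 week later at an age of 11 weeks (ABH 1W) and 4 weeks later at 15 weeks (ABH 4W). These ages are those of the labels, and the study's scheme shows ABH 4W as 1 week younger. Control mice without surgery (NC) were 7, 14 and 35 days (NC P7, NC P14, NC P35) and 10 weeks old (NC 10W). No sham operation is named in the labels or the methods. Each group was 1 pool of RNA, made from 4 male animals per the methods, and each pool was labelled once with Cy3 on one slide and once with Cy5 on the other. The 2 arrays of a pool are therefore technical repeats, and dye and slide cannot be told apart. All control pools lay in row 1 of the slides and all surgery pools in row 2, so position and surgery cannot be told apart either. With 1 pool a group there is no replicate of animals, and no test or p-value is given anywhere.

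Motile cilia are built on an axoneme of microtubule doublets around a central pair. Outer and inner dynein arms slide the doublets against each other, radial spokes pass signals from the central pair to the dyneins, and coiled-coil ruler proteins set the spacing of spokes and inner arms. FOXJ1 is the transcription factor that switches on this programme in multiciliated cells, together with RFX factors that bind the X-box in promoters of cilia genes. In the forebrain, most motile cilia sit on ependymal cells and on the epithelium of the choroid plexus, and ependymal cells of the mouse mature in the first weeks after birth. Neocortex itself holds few such cells, and how much ventricular wall was dissected with it is not given in the sources used here.

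Levels below are log2 signals relative to the 75th percentile of the same array, so that a negative level means a probe dimmer than that percentile. Each probe was compared with itself across pools only. Of the 9 probes, 8 were well above background on all 16 arrays, and the probe for *Dnali1* on 15, the exception being the Cy3 array of NC P14. None was saturated, and none was above background in the unlabelled channel of any array. Median signals lay between 143 and 1091 units over backgrounds of 54 to 78 units, so several of the probes were dim. The ependymal genes outside the cilium that were listed as a check, *Cd24a*, *Prom1*, *Pltp*, *Rarres2*, *Mia* and *Hdc*, were well above background in all 8 pools, although other cells also express some of them. In tissue of mixed cells, fewer ciliated cells and less RNA per ciliated cell cannot be told apart.

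*Foxj1*, the master regulator, was lowest in the young controls and highest 1 week after adult surgery. Its level was -1.18 with Cy3 and -1.27 with Cy5 in NC P7, -1.12 and -1.29 in NC P14, -0.76 and -0.74 in NC P35, and -1.04 and -1.12 in NC 10W. In the surgery pools it was -1.05 and -0.90 in NBH 1W, -0.91 and -0.87 in NBH 4W, -0.42 and -0.46 in ABH 1W, and -0.67 and -0.79 in ABH 4W. Both arrays of ABH 1W lay above every other array. With the pools put in order of their mean, the arrays of neighbouring pools overlapped in 5 of 7 steps, and they were separate between NBH 4W and NC P35 and between ABH 4W and ABH 1W.

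*Dnali1*, a light chain of the inner dynein arm, followed a similar order at a dimmer signal. It measured -2.95 with Cy3 and -3.08 with Cy5 in NC P7, -3.07 and -3.11 in NC P14, -2.72 and -2.75 in NC P35, and -3.04 and -3.02 in NC 10W. After surgery it measured -2.64 and -2.66 in NBH 1W, -2.90 and -2.82 in NBH 4W, -2.37 and -2.30 in ABH 1W, and -2.49 and -2.52 in ABH 4W. The dyes gave nearly the same level in each pool, with a median SD between dyes of 0.03, and neighbours in the order overlapped in only 1 of 7 steps (NC 10W and NC P7). Both adult surgery pools lay above all other pools, ABH 1W above ABH 4W.

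*Tmem212*, a membrane protein gene used as a marker of ciliated ependymal cells, also had its highest levels in the adult surgery pools. Its level was -2.86 with Cy3 and -3.04 with Cy5 in NC P7, -2.99 and -3.12 in NC P14, -2.30 and -2.43 in NC P35, and -2.70 and -2.68 in NC 10W. It was -2.60 and -2.67 in NBH 1W, -2.53 and -2.73 in NBH 4W, -2.02 and -2.20 in ABH 1W, and -1.99 and -2.20 in ABH 4W. The ABH 1W and ABH 4W arrays overlapped each other and lay above those of every other pool.

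*Tekt1*, a tektin of the doublet microtubule wall, was -1.06 and -1.19 in ABH 1W and -1.08 and -1.21 in ABH 4W, against -1.53 and -1.55 in NC 10W and -1.35 and -1.46 in NC P35. It was -1.50 and -1.51 in NBH 1W and -1.43 and -1.60 in NBH 4W. In the young controls the dyes disagreed, at -1.82 with Cy3 and -1.17 with Cy5 in NC P7 and at -1.34 and -1.85 in NC P14. The NC P7 array with Cy5 therefore reached the level of the adult surgery pools, and the SD between dyes there, 0.46, was nearly as large as the range of the pool means, 0.47.

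*Dynlrb2*, a light chain of the roadblock family, had a wide range over the pools, 1.16, and the order of its pools by mean was the order of their ages. It was -1.29 with Cy3 and -1.31 with Cy5 in NC P7, -1.22 and -1.17 in NC P14, -0.44 and -0.62 in NC P35, and -0.48 and -0.38 in NC 10W. It was -1.005 and -0.76 in NBH 1W, -0.54 and -0.62 in NBH 4W, -0.36 and -0.26 in ABH 1W, and -0.04 and -0.24 in ABH 4W. The 3 pools of 14 days or less held the lowest levels and the adult surgery pools the highest.

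*Dnah5*, a heavy chain of the outer dynein arm, ran the other way in development. It was -1.43 with both dyes in NC P7, and -2.59 and -2.70 in NC P14, -2.83 and -2.48 in NC P35, and -2.68 and -2.46 in NC 10W. After surgery it was -2.40 and -1.93 in NBH 1W, -2.64 and -2.33 in NBH 4W, -2.57 and -2.41 in ABH 1W, and -2.42 and -2.68 in ABH 4W. NC P7 stood above all other arrays, and the arrays of the other 7 pools overlapped their neighbours in every step. *Ccdc39*, a ruler protein of the axoneme, was likewise highest in NC P7, at -1.14 on average, and lowest in NC 10W, at -1.79.

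*Rsph1* and *Rsph4a* encode proteins of the radial spoke head. *Rsph1* spanned only 0.37 on the log2 scale, from -0.87 in NC P7 to -0.50 in NBH 1W, and the arrays of neighbouring pools overlapped in 6 of 7 steps. *Rsph4a* spanned 0.72, from -1.43 in NC P7 to -0.72 in NC P35, with SDs between dyes of up to 0.34 in ABH 4W.

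**Figure D1:**
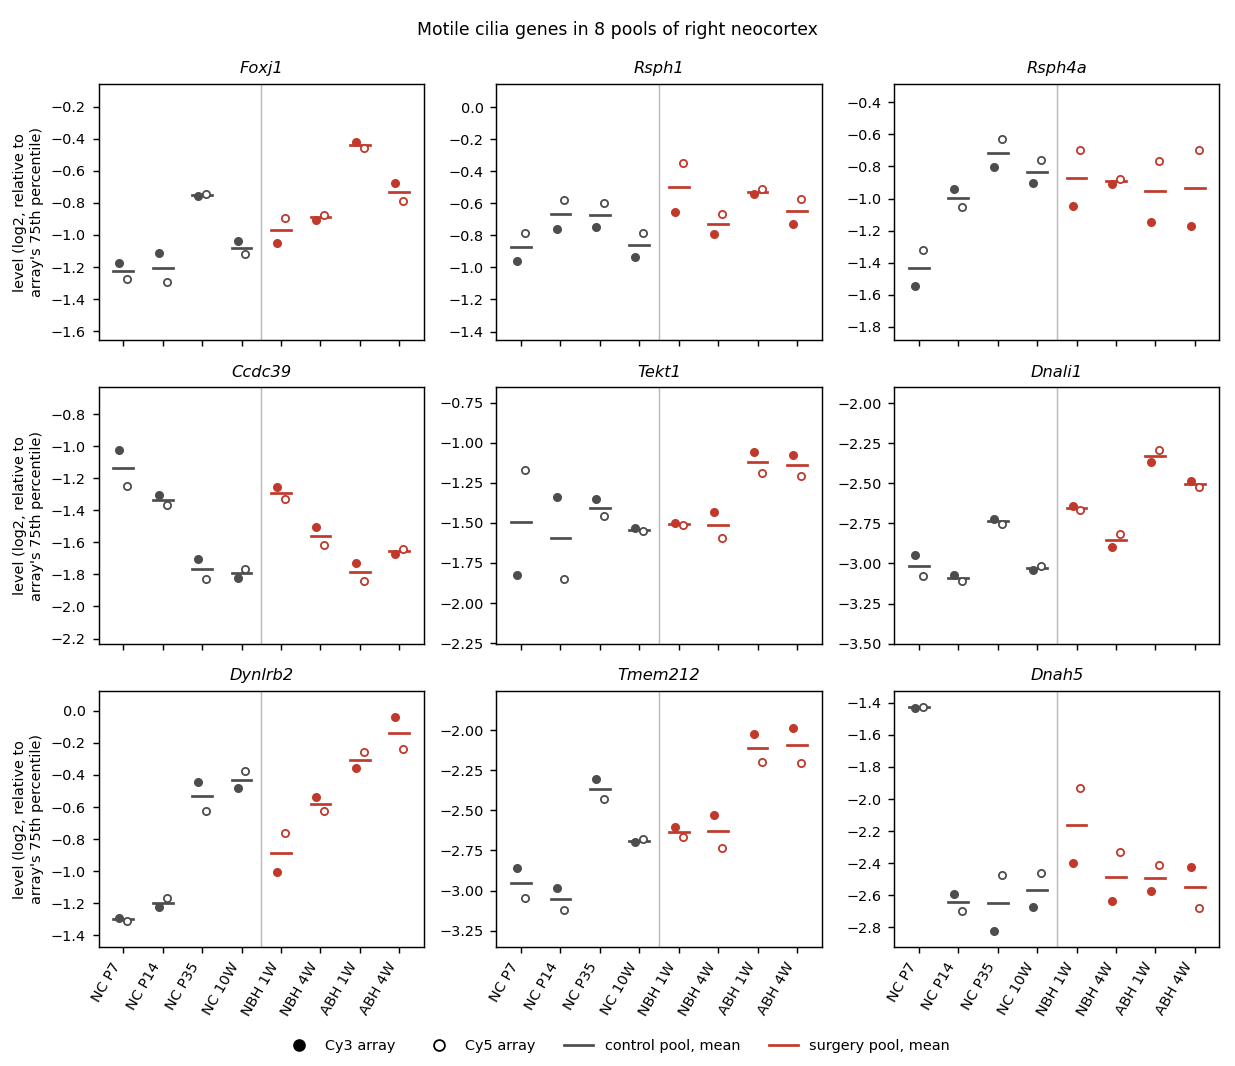
Level of each of the 9 motile cilia genes (y axis, log2 relative to the 75th percentile of the array) in the 8 pools (x axis), with filled points for Cy3 arrays, open points for Cy5 arrays and a line for their mean, grey for controls and red for surgery; every panel covers the same span of log2 units. *Foxj1*, *Tekt1*, *Dnali1*, *Dynlrb2* and *Tmem212* had their highest pool means in ABH 1W or ABH 4W, whereas *Dnah5* and *Ccdc39* were highest in NC P7.

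Across the controls alone, the genes did not move as one group with age. From NC P7 to NC P14, *Dnah5* was the only one called lower and none was called higher, where a call needed at least 1.5-fold higher or at most 0.75-fold as high with both dyes. *Dnah5* was 2.32-fold lower in NC P14, with log2 differences of -1.16 with Cy3 and -1.27 with Cy5, while 8.41% of all genes compared were called higher and 14.9% lower in that step. From NC P14 to NC P35, *Tmem212* was the only one called higher, at 1.61-fold (log2 0.68 and 0.69), and none was called lower, against 2.35% of all genes called higher and 6.15% lower. *Dynlrb2* was just outside the limit in the same step, at log2 0.78 with Cy3 and 0.55 with Cy5. *Foxj1* and *Dnali1* were at 0.45 ± 0.14 and 0.35 ± 0.00 (mean ± SD of the dyes), and *Ccdc39* was at -0.43 ± 0.04. From NC P35 to NC 10W, none of the 9 was called in either direction, against 1.62% of all genes called higher and 0.824% lower. In that last step 6 of the 9 were below 0 with both dyes, with a median of -0.14, *Foxj1* at -0.33 ± 0.07 and *Tmem212* at -0.32 ± 0.10. *Foxj1*, *Dnali1* and *Tmem212* therefore had higher levels in NC P35 than in NC P14 or NC 10W.

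Surgery at postnatal day 7 was compared with controls of the same age, and none of the 9 genes was called after either interval. In NBH 1W minus NC P14, 0 of 9 were called higher and 0 lower, against 0.433% and 0.401% of 15469 genes. Their differences ran from 0.04 for *Ccdc39* to 0.48 for *Dnah5*, with a median of 0.23 beside 0.07 for all genes. With both dyes above 0 there were 7 of the 9, compared with 37.9% of all genes, and *Rsph4a* and *Tekt1* had a different sign with each dye. *Dnali1* was at 0.43 with Cy3 and 0.44 with Cy5, and *Tmem212* at 0.38 and 0.45, so the dyes gave close values for both of these genes. *Dnah5*, the largest by mean, was at 0.19 with Cy3 and 0.77 with Cy5. The members' median was 0.11 with Cy3 arrays and 0.40 with Cy5 arrays.

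In NBH 4W minus NC P35, again 0 of 9 were called higher and 0 lower, against 0.189% and 0.737% of 15873 genes. The median was -0.11 beside 0.04 for all genes, and 6 of the 9 were below 0 with both dyes, compared with 24.6% of all genes. *Tmem212* had the lowest value, at -0.22 with Cy3 and -0.31 with Cy5, followed by *Rsph4a* at -0.10 and -0.25 and *Foxj1* at -0.15 and -0.13. *Ccdc39* and *Dnah5*, the same pair that was highest in NC P7, were the ones above 0 with both dyes, at 0.20 and 0.21 and at 0.19 and 0.14. For *Foxj1* the difference was smaller with both dyes than that between the controls NC P35 and NC 10W (-0.28 and -0.38), and for *Tmem212* it was smaller with Cy3 but not with Cy5 (-0.39 and -0.25 between the controls). Set against NC 10W in place of NC P35, the median of the 9 in NBH 4W became 0.08.

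Surgery in adult mice was compared with NC 10W in both cases, so ABH 1W and ABH 4W share their control, and that control is 1 week younger than ABH 1W and more so than ABH 4W. In ABH 1W, *Foxj1* and *Dnali1* were called higher and none was called lower, that is 2 of 9 higher against 4.69% of 16320 genes, and 0 lower against 5.74%. *Foxj1* was 1.56-fold higher, with log2 differences of 0.62 with Cy3 and 0.66 with Cy5, and *Dnali1* was 1.62-fold higher, with 0.67 and 0.72. Both values lie close above the limit with this processing. In the deposited value table without scaling, the difference of *Dnali1* was larger, at 1.35 on the log2 scale. *Tmem212* lay just below the limit with one dye, at 0.67 with Cy3 and 0.48 with Cy5. *Tekt1* was at 0.47 and 0.36, and *Rsph1* at 0.39 and 0.27. *Dynlrb2* was at 0.12 with both dyes, and *Dnah5* at 0.10 and 0.05. *Ccdc39* had a different sign with each dye, at 0.10 and -0.08, and *Rsph4a* averaged -0.12 ± 0.16. The median was 0.33 beside -0.05 for all genes, and 7 of the 9 were above 0 with both dyes, compared with 29.0% of all genes.

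The calls in ABH 1W rested on the choice of control, although NC P35 is further in age from ABH 1W than NC 10W is. Against NC P35 in place of NC 10W, *Foxj1* in ABH 1W was at 0.34 with Cy3 and 0.29 with Cy5 and *Dnali1* at 0.36 and 0.46, all above 0, and neither was called. The median of the 9 was then 0.22 beside -0.02 for all genes.

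In ABH 4W minus NC 10W, 0 of 9 were called higher and 0 lower, against 0.43% and 0.209% of 16294 genes. The median was 0.29 beside 0.07 for all genes, and 7 of the 9 were above 0 with both dyes, compared with 39.5% of all genes. *Tmem212* had the largest mean, at 1.51-fold, but reached the limit with Cy3 only (0.71, against 0.48 with Cy5). *Dnali1* was at 0.55 and 0.50, *Tekt1* at 0.46 and 0.34, and *Foxj1* at 0.37 and 0.33. *Rsph4a* and *Dnah5* had a different sign with each dye, at -0.27 and 0.06 and at 0.25 and -0.22. Against NC P35 in place of NC 10W, the differences of *Foxj1*, *Dnali1*, *Tekt1* and *Tmem212* in ABH 4W were smaller with both dyes. *Foxj1* was then at 0.08 and -0.05, *Dnali1* at 0.24 and 0.23, *Tekt1* at 0.28 and 0.25, and *Tmem212* at 0.32 and 0.23.

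**Figure D2:**
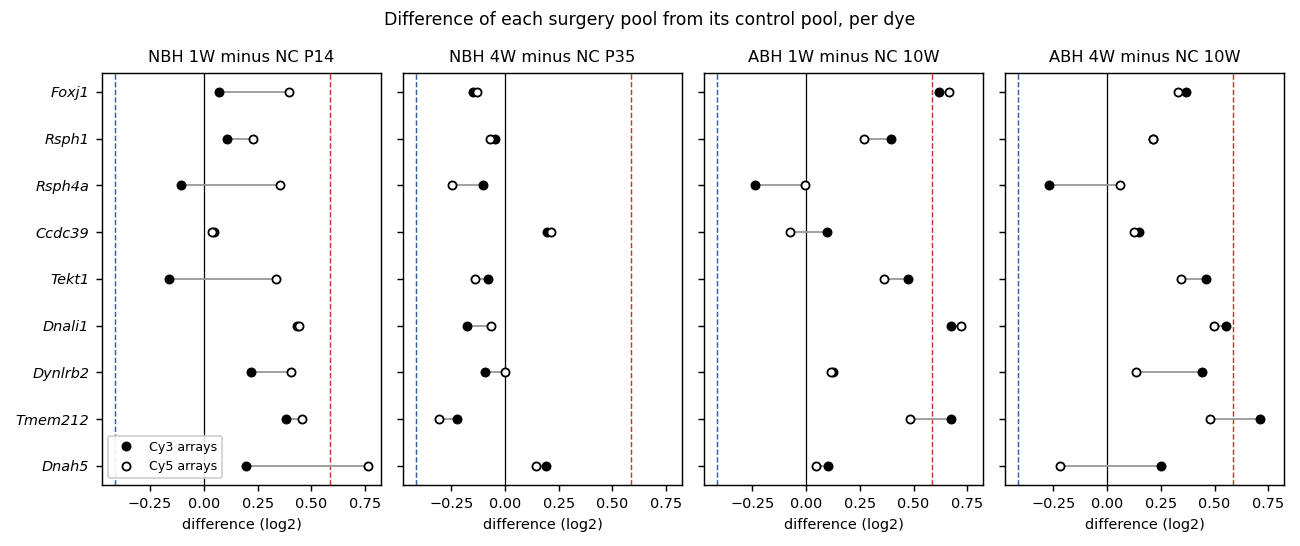
Log2 difference of each surgery pool from its control pool (x axis) for the 9 motile cilia genes (y axis), with filled points for the Cy3 arrays, open points for the Cy5 arrays, a red dashed line at 1.5-fold higher and a blue dashed line at 0.75-fold. *Foxj1* and *Dnali1* in ABH 1W are the pairs of points that both lie beyond a dashed line.

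A second probe existed for 3 of the genes and was called in no comparison of surgery with control. For *Tekt1* it was at 0.31 in ABH 1W and 0.21 in ABH 4W, beside 0.42 and 0.40 for the brighter probe. For *Rsph1* it was at 0.20 and 0.22, beside 0.33 and 0.21. The 2 probes for *Rsph4a* disagreed, since the second was at 0.22 in NBH 4W where the brighter probe was at -0.17, and at -0.38 from NC P14 to NC P35 where the brighter probe was at 0.28. *Foxj1* and *Dnali1* had 1 probe each.

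The 9 genes did not share one profile over the 8 pools. Pearson's r between the pool means of 2 genes was between -0.89 and 0.94 over 36 pairs, with a median of 0.43, and it was below 0 in 14 pairs. *Foxj1*, *Tekt1*, *Dnali1* and *Tmem212* made up a tight set, with *Foxj1* and *Tmem212* at 0.94 and *Foxj1* and *Dnali1* at 0.92. *Ccdc39* and *Dnah5* correlated with each other at 0.74 and were below 0 with each of the other genes. The pools are single, differ in age as well as surgery, and share slides, so these values are a description.

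**Figure D3:**
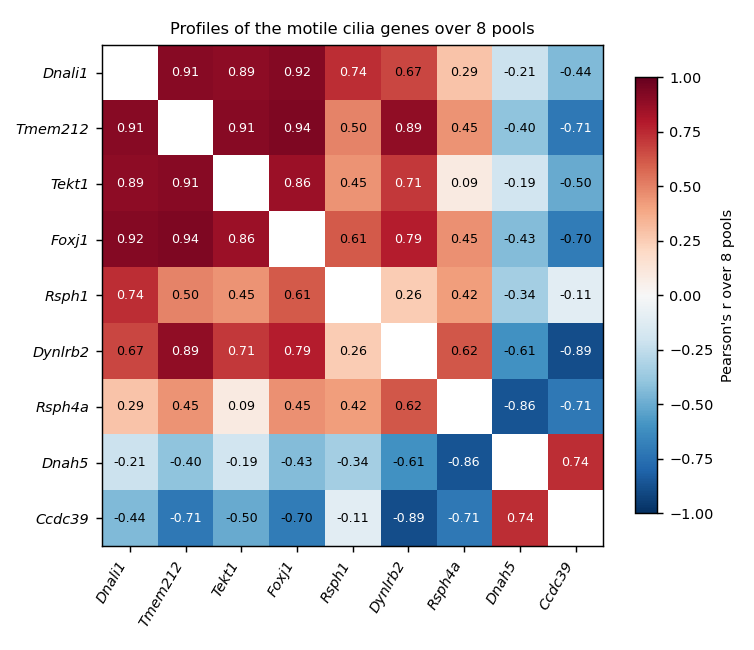
Pearson's r over 8 pools between the mean levels of each pair of the 9 motile cilia genes (both axes, the same genes in order of their r with the mean of the others), from blue at -1 to red at 1. *Dnali1*, *Tmem212*, *Tekt1* and *Foxj1* form the red block, and *Dnah5* and *Ccdc39* the blue rows.

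Among 3953 genes with a range of 1 log2 unit or more, the 10 whose pool means were most like the mean profile of the 8 members detected on all arrays were *Echdc3*, *Ccdc153*, *Synpo2*, *Slc39a4*, *Nfe2l2*, *Rbpms2*, *Serpinb1c*, *Col8a2*, *Lefty1* and *Vav3*, with r between 0.85 and 0.88 over the 8 pools. *Ccdc153*, a gene of multiciliated cells, is the one that also stands in the lists of cilia genes below. How many of the 3953 genes stand in those lists is not given, so this match cannot be set against a share.

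Promoters bear on these genes because RFX factors and FOXJ1 act there. RefSeq promoter sequences (GRCm38.p6) were at hand for 7 of the 10 genes, *Ccdc39*, *Ccdc40*, *Dnah5*, *Dnali1*, *Dynlrb2*, *Tekt1* and *Tmem212*. The half-site GTTGCC of the X-box was searched on both strands. It was found in 2 of the 7, *Tekt1* and *Dynlrb2*, and in 12.5% of all 32851 promoters of the same length. The forkhead core TGTTTAC, searched in the same way and not overlapping the first motif, was in none of the 7 and in 3.65% of all promoters. The stretches that hold the half-site are shown with its letters in capitals, 5′ to 3′ on the strand of the gene, at chr8:116504924-116505009 (plus strand) for *Dynlrb2* and chr11:72361883-72361957 (minus strand) for *Tekt1*, where it occurs once on each strand:
Dynlrb2: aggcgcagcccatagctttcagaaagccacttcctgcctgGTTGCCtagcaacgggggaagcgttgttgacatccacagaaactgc
Tekt1: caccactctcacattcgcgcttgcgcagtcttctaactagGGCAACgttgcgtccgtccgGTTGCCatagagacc
The match begins 51 bases before the start site in *Dynlrb2* and 35 and 15 bases before it in *Tekt1*. These genes were not called in any of the surgery comparisons.

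The wider set of motile cilia genes was taken from 8 lists of 101 genes by role in the cilium, 90 of which had a named probe. None of them was called in NBH 1W or NBH 4W, of 68 and 73 compared, against 0.433% of all genes higher and 0.401% lower in NBH 1W and 0.189% and 0.737% in NBH 4W. In ABH 1W, 2 of 72 were called higher and 3 lower, no more than the shares over all genes (4.69% and 5.74%), and in ABH 4W 1 of 74 was called higher and 1 lower (0.43% and 0.209% of all genes). The higher ones were *Dnaic2*, an intermediate chain of the outer dynein arm, at 1.98-fold in ABH 1W (log2 1.02 and 0.96), and *Ccdc153*, at 1.55-fold in ABH 1W and 1.68-fold in ABH 4W. The lower ones were *Ccdc78*, which acts in the amplification of centrioles, at -1.22 in ABH 1W and -0.66 in ABH 4W, *Cfap221*, a protein of the central pair, at -0.76 in ABH 1W, and *Dnaaf1*, an assembly factor of dynein arms, at -0.56 in ABH 1W. These calls also rested on NC 10W, in which *Ccdc78* and *Dnaaf1* were themselves called higher than in NC P35 (1.15 and 0.65), *Cfap221* was at 0.54 and *Ccdc153* was called lower (-0.55). *Ccdc78* was well above background on 1 of the 2 arrays in ABH 1W and in NC P35, so these pools could not be compared for it. Against NC P35, none of the wider set was called in ABH 1W, with *Ccdc153* at 0.08, *Cfap221* at -0.22 and *Dnaaf1* at 0.10. *Dnaic2* was just below the limit there, at 0.57 with Cy3 and 0.56 with Cy5. Against NC 10W in place of NC P35, *Ccdc78* was called lower in NBH 4W. In ABH 4W against NC P35, *Ccdc153* was at 0.20, *Ccdc78* at 0.49 and not called, and *Cfap221* was called higher at 0.73. The medians of the wider set against the first controls were 0.13, 0.04, -0.06 and 0.13 in NBH 1W, NBH 4W, ABH 1W and ABH 4W, next to 0.07, 0.04, -0.05 and 0.07 for all genes. In ABH 1W, 20 of the 72 were above 0 with both dyes and 34 below, beside 29.0% and 45.8% of all genes. The wider set did not show the median of 0.33 seen for the 9 genes. Its probes differed in brightness, with *Mcidas* at 5.52 and *Spef2* at 5.51 in NC 10W, and *Dnaic2* at -2.61. Whether the bright probes report ciliated cells in this tissue was not tested.

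By role in ABH 1W, the median was -0.07 for outer dynein arm genes, -0.21 for inner dynein arm genes, -0.20 for the nexin-dynein regulatory complex, -0.18 for radial spoke and central pair genes, -0.06 for dynein assembly factors, -0.11 for other axonemal proteins, -0.04 for regulators of ciliogenesis and 0.04 for other genes of multiciliated cells. None of the 9 genes was counted in these lists. The 31 genes of intraflagellar transport and the BBSome, which primary cilia of neurons and glia also use, had none called in any of the 4 surgery comparisons and a median of -0.06 in ABH 1W.

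**Figure D4:**
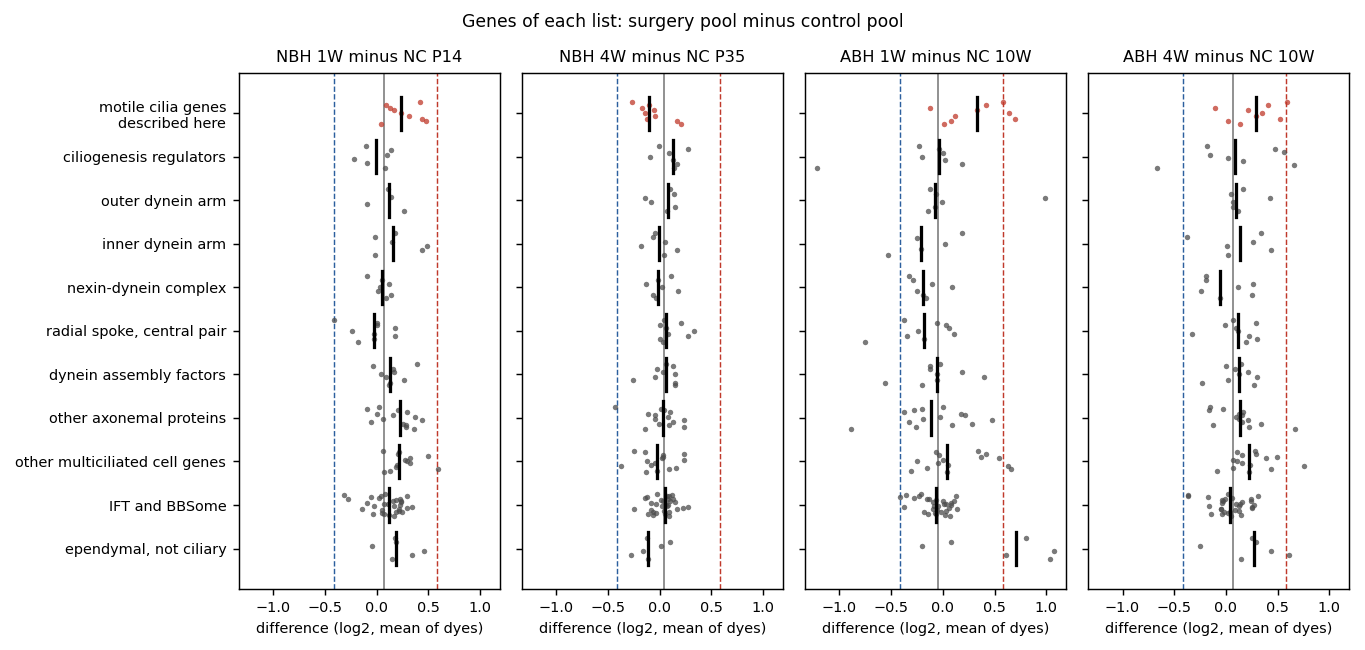
Mean log2 difference (x axis) of every compared gene in the 9 motile cilia genes (red points) and in lists of cilia and ependymal genes (grey points, y axis) in the 4 surgery comparisons, with a black bar for the median of a list, a grey line for the median of all genes and dashed lines at 1.5-fold and 0.75-fold. In ABH 1W the medians of the 9 genes (0.33) and of the ependymal genes outside the cilium (0.71) lie to the right of those of the other cilia lists, although single genes of both overlap with them.

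Genes of other cells moved in the same pools, and their part in the values above was not tested. Of the 6 ependymal genes outside the cilium, *Cd24a*, *Rarres2* and *Mia* were called higher in ABH 1W, at 2.06-, 1.75- and 2.11-fold, with a list median of 0.71, where 4.69% of all genes were called higher. Not called were *Hdc* (log2 0.77 with Cy3 and 0.45 with Cy5), *Prom1* (0.11 and 0.04) and *Pltp* (-0.40 and -0.004). Against NC P35, *Mia* alone was called higher in ABH 1W, with a list median of 0.29 beside -0.02 for all genes. The share of all genes called is not given for comparisons with another control pool. The summed level of the 6 (linear, relative to the 75th percentile, lower and higher dye) was 9.14 to 9.54 in NC 10W and 11.3 to 11.8 in ABH 1W, but 37.8 to 38.2 in NC P7, where *Cd24a* alone was at 5.001 on the log2 scale. Without *Cd24a* the sum was lowest in NC P7, at 5.96 to 5.97, and was 8.66 to 9.05 in NC 10W and 10.2 to 10.8 in ABH 1W. *Hdc* was called higher in ABH 4W, at 1.52-fold, where 0.43% of all genes were called higher. *Cd24a* was called lower in ABH 4W against NC P35, with a list median of -0.04 beside 0.10 for all genes. None of the 6 was called in NBH 1W or NBH 4W.

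Choroid plexus epithelium also carries motile cilia. Of its 18 markers, 8 were called higher in NBH 1W, 4 in NBH 4W and 10 in ABH 4W, among them *Ttr*, *Folr1*, *Kcne2* and *Sostdc1* each time, against 0.433%, 0.189% and 0.43% of all genes. In ABH 1W, where *Foxj1* and *Dnali1* were called, 2 of the 18 were called higher and 2 lower (4.69% and 5.74% of all genes), and *Ttr* was at -0.09. The summed level of the 18 was 28.6 to 29.4 in NC P14 and 72.5 to 73.6 in NBH 1W, 32.1 to 32.5 in NC P35 and 52.1 to 54.0 in NBH 4W, and 30.5 to 30.9 in NC 10W, 29.5 to 29.9 in ABH 1W and 63.5 to 67.8 in ABH 4W. The summed level of the 9 cilia genes was 3.05 to 3.21 in NC P14 and 3.39 to 3.85 in NBH 1W, 3.69 to 3.71 in NC P35 and 3.52 with both dyes in NBH 4W, and 3.32 to 3.50 in NC 10W, 4.05 to 4.18 in ABH 1W and 4.02 to 4.05 in ABH 4W. In NBH 4W the sum was thus higher than in NC P35 for the choroid plexus and lower for the cilia genes. For the cilia genes it was not lower than in NC 10W (3.32 to 3.50).

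Other lists changed in ABH 1W as well. There, 6 of 7 microglia and macrophage genes were called higher (median 0.93), 5 of 11 genes of the leptomeninges (0.43) and, of 7 astrocyte genes, *Gfap* (0.46 for the list), beside 4.69% of all genes. In the leptomeninges list, *Col1a1*, *Col1a2*, *Dcn*, *Lum* and *Foxd1* were the ones called. Not called were *Aldh1a2* (0.43), *Igf2* (0.24), *Slc6a13* (0.10), *Slc22a6* (-0.02), *Slc47a1* (-0.10) and *Ptgds* (-0.07). Of 11 genes of the subventricular zone and neuroblasts, which lie next to the ependyma, *Top2a* and *Mki67* were called higher and *Sp8* lower. Striatal genes were not called in ABH 1W, but 7 of 10 were called lower in NBH 4W (0.737% of all genes) and 6 of 10 higher in ABH 4W (0.43%). Against NC P35, 6 of the 10 striatal genes were called lower in ABH 1W and none in ABH 4W. The list medians were then -0.54 and 0.19, beside -0.02 and 0.10 for all genes, for which no share called is given. Markers of neocortical neurons were well above background in all pools.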

How the data were processed

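Microarray data of 16 arrays (8 pools, each with Cy3 and with Cy5) were used. The authors deposited scanner files of Agilent Feature Extraction 11.0.1.1, holding the linear intensity of each spot and of its background, and a value table of processed signal intensity without scaling between arrays. From the deposited intensity, the median signal of the labelled channel was corrected with normexp (limma 3.58.1, R 4.3.3, offset 50), which pulls fold changes of dim probes towards 0. Values were set to log2, spots marked as outliers were left out, and the 75th percentile of the 55681 probes was subtracted per array. Probes were named through RefSeq accessions (GRCm38.p6 table, 26582 probes, 20145 genes), and a gene took its probe with the highest mean. A gene was compared where its probe was well above background with each dye in one pool or the other. Probes dim on both arrays of a pool gave bounds only. A call needed at least 1.5-fold or at most 0.75-fold with both dyes. There was no test, since each group is 1 pool, and the number of arrays limits the precision.

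Members and gene lists were chosen with earlier results of these data known. Named were all members, called genes of the wider cilia lists, the 10 genes most alike in profile, and called or bright genes of other lists. Alternatives changed the background correction, scaling, filter, limits, dye, probe, table and control pool. Comparing the other gene lists with the other control pool, and summing the ependymal genes without *Cd24a*, were added after seeing the data. Columns of per-sample values that were left out numbered 0.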

Additional observations from a re-analysis of the deposited data

Results flagged for a closer look

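For 5 of the genes, both dyes moved one way in one surgery pool and the other way in another, each against its own control. This difference between groups was not tested, because each group is 1 pool. Of all genes, 37.9% were above 0 with both dyes in NBH 1W, 24.6% below 0 in NBH 4W and 39.5% above 0 in ABH 4W. The share of all genes with opposite signs in 2 pools is not given. *Rsph1* was only at -0.06 in NBH 4W, beside a median SD between dyes of 0.11 in its levels. The difference in NBH 1W minus that in NBH 4W was 0.37 on the log2 scale for *Foxj1*, 0.22 for *Rsph1*, 0.56 for *Dnali1* and 0.68 for *Tmem212*, with both dyes above 0 at 1 week and below 0 at 4 weeks. The difference in NBH 4W minus that in ABH 4W was -0.49 for *Foxj1*, -0.27 for *Rsph1*, -0.51 for *Tekt1*, -0.64 for *Dnali1* and -0.86 for *Tmem212*, with both dyes below 0 after neonatal and above 0 after adult surgery. NC P35, the control of NBH 4W, was itself higher than NC P14 and NC 10W in *Foxj1*, *Dnali1* and *Tmem212*. NBH 4W was also set against NC 10W, the control of ABH 4W. It was then above 0 with both dyes for *Foxj1* (0.13 and 0.25), *Rsph1* (0.15 and 0.12) and *Dnali1* (0.14 and 0.20). *Tekt1* (0.10 and -0.05) and *Tmem212* (0.17 and -0.05) had a different sign with each dye. The opposite signs of NBH 4W and ABH 4W thus did not hold with NC 10W for both. With NC P35 for both, they held for *Rsph1*, *Tekt1*, *Dnali1* and *Tmem212*, but not for *Foxj1* (0.08 and -0.05 in ABH 4W).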

How the results depend on the processing

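Counts of called genes were small and moved with several settings. *Foxj1* and *Dnali1* were each called higher in ABH 1W in 11 of 13 alternatives, and the number of genes called higher there fell from 2 to 0 with 2-fold limits and with another control pool (NC P35). Limits of 1.5-fold in both directions, the background filters, each dye alone and the mean of all probes could not remove these calls. Both genes passed with both dyes well above background and had 1 probe each. These calls in ABH 1W were kept with the processed signal, normexp offset 0, the value table without scaling, quantile normalization and median scaling. *Tmem212* was called in that comparison in 6 of the 13. The mean difference of *Dnali1* there ran from 0.41 against NC P35 to 1.35 with the value table without scaling. In NBH 1W, 1 gene was called higher with the processed signal (*Dnali1*) and 1 with Cy5 arrays alone (*Dnah5*). In NBH 4W, 1 was called lower with the processed signal and 3 with the value table without scaling, where the median of all genes was itself -0.20. In ABH 4W, 2 were called higher with the processed signal, 1 with normexp offset 0 and 1 with Cy3 arrays alone. The share of all genes called is not given for these settings, so the counts cannot be set against it.

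Scaling by the median in place of the 75th percentile moved the median of all genes in ABH 1W from -0.05 to 0.21, and the value table moved it in NBH 1W from 0.07 to -0.12 and in NBH 4W from 0.04 to -0.20. With that table *Rsph1* and *Ccdc39* in NBH 1W went below 0 (-0.02 and -0.18), as did *Ccdc39* and *Dnah5* in NBH 4W (-0.09 and -0.16) and in ABH 4W (-0.10 and -0.32), and with median scaling *Rsph4a* in ABH 1W was at 0.14. Relative to all genes, the median of the 9 stayed above 0 in NBH 1W (0.08 to 0.28), ABH 1W (0.25 to 0.44) and ABH 4W (0.01 to 0.30), while in NBH 4W it ran from -0.18 to 0.05. No paired analysis was possible because each group is 1 pool.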
